A study of Mus musculus with 12 samples.

Results

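The genes described here encode the Fox, Tbx, Gata, Lhx, Irx and Nkx transcription factors of the mouse. They were taken by symbol from the protein-coding genes annotated on mm9, which gave 90 genes out of 22342. The Fox family held 43 of them, Nkx 14, Tbx 13, Lhx 8, and Irx and Gata 6 each. C2C12 is a line of mouse myoblasts that was derived from C3H muscle and fuses into myotubes when serum is withdrawn. The 6 histone marks, H3K27ac, H3K27me3, H3K36me3 and the 3 methylation states of H3K4 (me1, me2 and me3), were profiled by ChIP-seq in myoblasts and in myotubes. The myoblasts, at passage 15 to 18, were kept in 10% serum and taken close to confluence. The myotubes were taken after about 5 days of differentiation and freed of unfused cells with light trypsin. There was 1 library for each mark in each cell type, 12 in all, so no test between the cell types was possible, and every interval below covers counting error only.

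These factors bind DNA through a forkhead, T-box, zinc finger or homeodomain and are known as regulators of lineage choice in the embryo. Many of them are silent in most adult tissues and act in a few lineages, such as Nkx2-1 in lung and thyroid, Lhx3 in pituitary and motor neurons and Gata1 in red blood cells. H3K4me3 and H3K27ac mark active promoters, H3K4me1 and H3K4me2 mark promoters and enhancers, and H3K36me3 lies over transcribed gene bodies. H3K27me3 is placed by Polycomb complexes and covers promoters of silent developmental genes, often those rich in CpG.

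Each gene was read out in the 4 kb centred on its transcription start site. The level of a mark is given as fold over the genome mean, that is, the reads in the 4 kb divided by the reads expected if the library were spread evenly. A gene was called marked where the lower end of the exact Poisson 95% interval lay above 2-fold. The libraries held 1857191 to 7026942 reads, which gives 2.91 to 11.0 expected reads per window. The shallowest was H3K27ac in myoblasts. The peak lists deposited with the myoblast H3K27ac and H3K27me3 samples did not match their labels: the H3K27ac reads were 36.4-fold enriched in the list deposited with the H3K27me3 sample and 0.588-fold in their own. The results below were therefore counted from the reads, and the lists served only as an alternative. The cell labels were checked against marker genes. All 4 myogenic markers (Myod1, Myf5, Des and Cdh15) had H3K4me3 in both cell types, whereas the 7 myotube markers, among them Ckm and Myh3, had it at 2 in myoblasts and at 7 in myotubes. None of 21 markers of adipocytes, endothelium, blood, neurons, hepatocytes, epithelium and heart had H3K4me3 or H3K27ac in either cell type, with levels of 0 to 3.44-fold. In these bulk preparations, a change in the share of cells cannot be told apart from a change per cell.

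In myoblasts the 90 genes fell into a pair of large groups of similar size, those with H3K4me3 and those with H3K27me3. H3K4me3 was called at 37 of them, against 49.5% of all protein-coding genes, and H3K27me3 at 41, against 10.1%. The marks were found alone at 33 and 37 genes, together at 4, and neither was called at 16 (17.8%, against 41.4% of all genes). In myotubes H3K4me3 was called at 35 genes (49.7% of all genes) and H3K27me3 at 19 (6.3% of all genes). No gene was then called for both, 19 had H3K27me3 only (21.1%, against 5.89% of all genes) and 36 had neither, a share of 40% that was near the 44.4% of all genes.

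**Figure D1:**
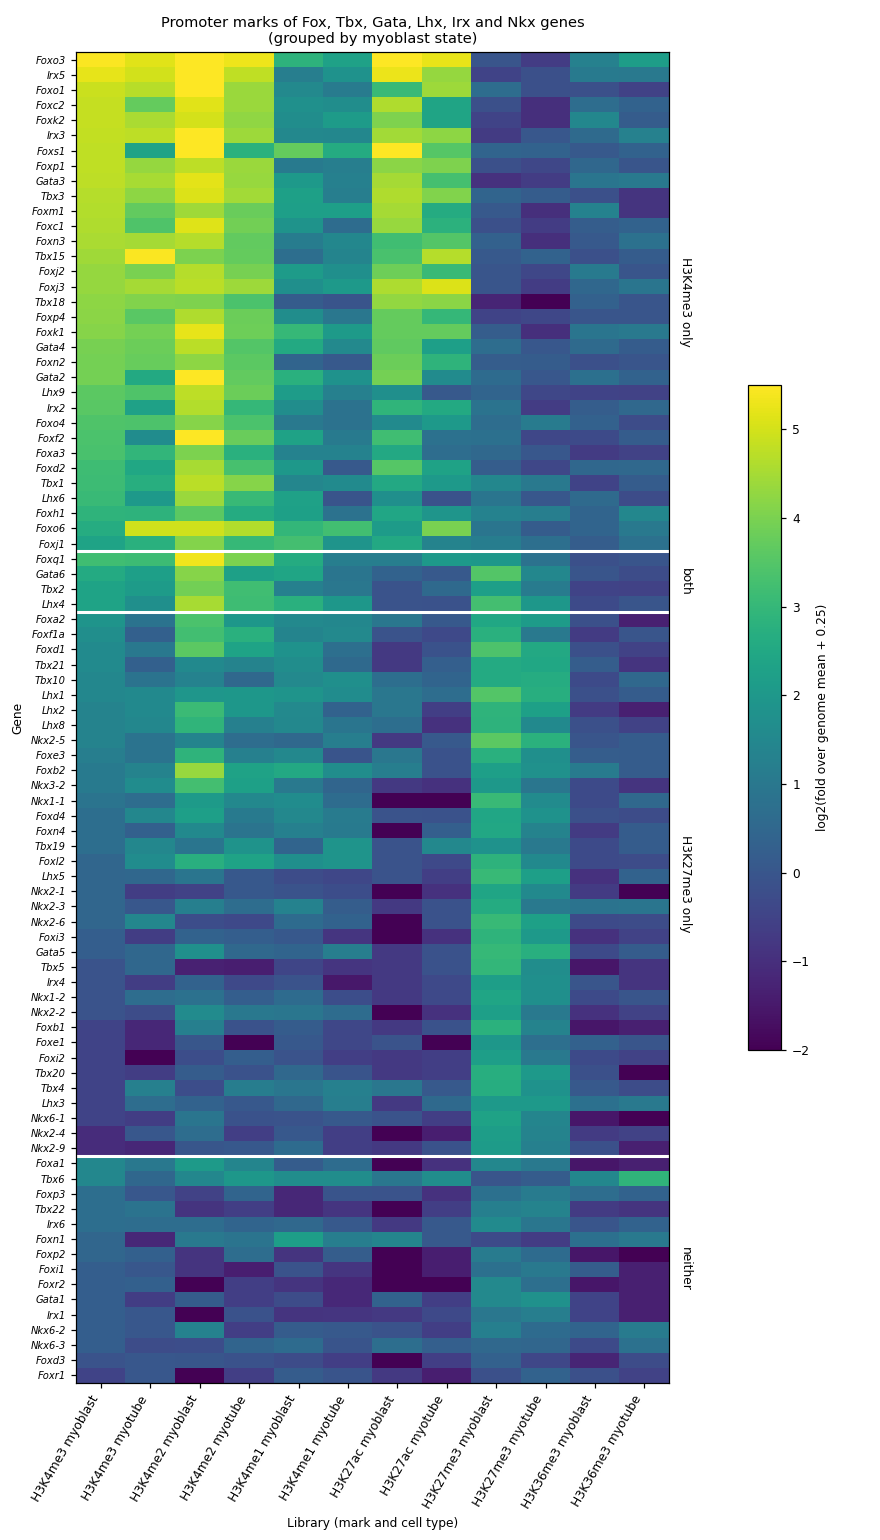
Promoter level of 6 marks in myoblasts and myotubes for 88 of the 90 genes, 1 row per gene and 1 column per library, coloured by log2(fold over the genome mean + 0.25). White lines separate the genes by myoblast state, from the top H3K4me3 only, both marks, H3K27me3 only and neither. The bright H3K4me3 and H3K27ac columns stop at about the first white line, and the H3K27me3 columns are brightest in the middle groups and darker in myotubes.

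The promoter sequences of a few genes are printed as examples. They were picked by level or state and, for Tbx5, by CpG count, so they stand for no group. Each stretch below is the 150 bases upstream of the start site on the gene's strand in mm9, with every CpG in capitals. Foxo3, which had the highest H3K4me3 of the 90 genes, and Irx5, which had the next highest, are set beside Nkx2-5 and Foxd1, both with high H3K27me3, and Lhx4, which had both marks. Tbx5, which also had H3K27me3, is shown because its stretch holds no CpG. They lie at chr10:41996562-41996711 (minus strand), chr8:94881545-94881694 (plus), chr17:26978511-26978660 (minus), chr13:99124050-99124199 (plus), chr1:157589158-157589307 (minus) and chr5:120284522-120284671 (plus).
Foxo3: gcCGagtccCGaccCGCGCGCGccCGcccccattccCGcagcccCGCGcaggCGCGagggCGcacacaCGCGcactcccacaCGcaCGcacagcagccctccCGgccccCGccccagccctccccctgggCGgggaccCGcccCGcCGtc
Irx5: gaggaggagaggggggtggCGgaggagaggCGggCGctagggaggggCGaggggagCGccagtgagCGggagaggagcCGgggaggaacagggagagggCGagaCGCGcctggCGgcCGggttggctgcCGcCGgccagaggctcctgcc
Nkx2-5: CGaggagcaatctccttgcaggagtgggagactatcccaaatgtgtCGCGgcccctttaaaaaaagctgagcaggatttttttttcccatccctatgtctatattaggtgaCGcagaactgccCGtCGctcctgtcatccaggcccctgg
Foxd1: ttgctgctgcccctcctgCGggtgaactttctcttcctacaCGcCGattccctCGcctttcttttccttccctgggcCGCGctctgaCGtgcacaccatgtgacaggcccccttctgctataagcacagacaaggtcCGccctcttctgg
Lhx4: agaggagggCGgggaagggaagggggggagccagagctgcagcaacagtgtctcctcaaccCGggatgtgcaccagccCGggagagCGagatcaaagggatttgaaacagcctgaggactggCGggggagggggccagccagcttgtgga
Tbx5: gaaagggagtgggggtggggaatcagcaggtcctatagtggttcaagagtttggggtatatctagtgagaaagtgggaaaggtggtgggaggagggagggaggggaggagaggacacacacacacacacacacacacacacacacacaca
The stretch of Foxo3 holds 23 CpG and that of Irx5 holds 14, against 6 at Nkx2-5, 8 at Foxd1, 5 at Lhx4 and 0 at Tbx5. Foxc2, which had H3K4me3 only, has 8, as many as Foxd1. Foxr1, which had neither mark, has 11, more than any gene printed here with H3K27me3.

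Among the Fox genes, H3K4me3 was highest at Foxo3 and Foxo1 in myoblasts. The FoxO factors act downstream of insulin and IGF signalling and control atrophy genes in muscle. Foxo3 reached 44.0-fold in myoblasts and 35.7-fold in myotubes, with H3K27ac at 55.7-fold and 37.9-fold. Foxo1 had 29.7-fold and 25.4-fold H3K4me3. Foxo4 had less, at 10.6-fold and 10.3-fold. Its H3K27ac, 2.75-fold in myoblasts, was not called there but was called in myotubes at 3.92-fold. Those calls were made at unequal depth, with 2.91 reads expected per window in the myoblast H3K27ac library and 7.39 in the myotube one. Foxk1, a forkhead factor known from muscle progenitors, had 17.5-fold H3K4me3 in myoblasts and 14.9-fold in myotubes, and its relative Foxk2 had 28.1-fold and 23.1-fold. Foxc1 and Foxc2, which act in mesoderm and vessel development, stood at 24.0-fold and 28.1-fold in myoblasts. All of these genes lacked H3K27me3 in both cell types.

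Several of the Fox genes with H3K27me3 are best known from other lineages. They included Foxa2, a factor of endoderm, at 5.29-fold in myoblasts and 4.08-fold in myotubes, and Foxd1, a factor of kidney stroma, at 10.4-fold and 5.48-fold. Foxe1 and Foxe3, which act in thyroid and lens, had 3.65-fold and 6.47-fold in myoblasts. In all, 12 Fox genes had H3K27me3 alone in myoblasts (27.9%, against 9.04% of all genes). Another 21 had H3K4me3 alone, and their share of 48.8% was that of all genes (48.5%). Some of the 21 are also best known from other lineages, such as the ciliary factor Foxj1 and Foxo6, known from brain.

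The T-box genes also held both kinds. Tbx3, a regulator of limb and heart patterning, had the highest myoblast level of the family for H3K4me3 (25.1-fold) and H3K27ac (24.1-fold), and was at 18.4-fold and 16.6-fold in myotubes. Tbx15 and Tbx18, both known from limb and trunk mesenchyme, had 21.4-fold and 18.4-fold H3K4me3 in myoblasts. Tbx1 had 8.53-fold in myoblasts and 6.21-fold in myotubes. By contrast, Tbx5, the forelimb and heart factor, had 7.56-fold H3K27me3 in myoblasts and 2.93-fold in myotubes, and H3K4me3 of 0.692-fold and 1.16-fold. Tbx4, its hindlimb relative, had 6.11-fold and 3.32-fold H3K27me3. Tbx20 and Tbx21, which act in heart and in T cells, also had H3K27me3 in both cell types.

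Of the Gata factors, Gata3 had the highest H3K4me3 in myoblasts (27-fold) and the highest H3K27ac (22.0-fold), followed by Gata4 at 15.4-fold H3K4me3 and Gata2 at 15.0-fold, whose intervals overlapped. Gata2 and Gata3 are best known from blood and Gata4 from heart and gut. Gata5 carried H3K27me3 alone, at 7.93-fold in myoblasts and 6.38-fold in myotubes. Gata1, the erythroid factor, was under the threshold in myoblasts at 2.64-fold and just above it in myotubes at 3.19-fold.

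Of the Iroquois homeobox genes, Irx3, Irx5 and Irx2 had H3K4me3 and the others did not. Irx5 had 37.1-fold in myoblasts and 31.2-fold in myotubes, with H3K27ac of 38.5-fold and 19.6-fold. Its window also holds part of the gene 4933436C20Rik. Irx3 had 27.7-fold and 26.8-fold H3K4me3. Irx4, a factor of the heart ventricle, was the only member of its family called for H3K27me3, at 4.37-fold in myoblasts. Irx1 and Irx6 had no call for either mark in their promoter windows in either cell type.

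The Lhx genes, whose LIM-homeodomain products specify neurons and organ fields, were mostly on the H3K27me3 side. Lhx1, Lhx2, Lhx3, Lhx5 and Lhx8 had H3K27me3 alone in myoblasts, with Lhx1 highest at 11.1-fold, and 6.25-fold in myotubes. Lhx9 had the highest H3K4me3 of the family, 12-fold in myoblasts and 10.5-fold in myotubes. Lhx6 and Lhx9 had H3K4me3 but no H3K27ac call in either cell type.

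None of the 14 Nkx genes had H3K4me3 or H3K27ac in either cell type, and 12 had H3K27me3 in myoblasts. The highest was Nkx2-5, the early heart factor, at 11.8-fold in myoblasts and 6.63-fold in myotubes. Nkx3-2, which acts in cartilage precursors, had 3.74-fold in myoblasts and 1.66-fold in myotubes. In myotubes 3 genes, among them Nkx2-5 and Nkx2-6, were still called and the remaining 9 were not.

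**Figure D2:**
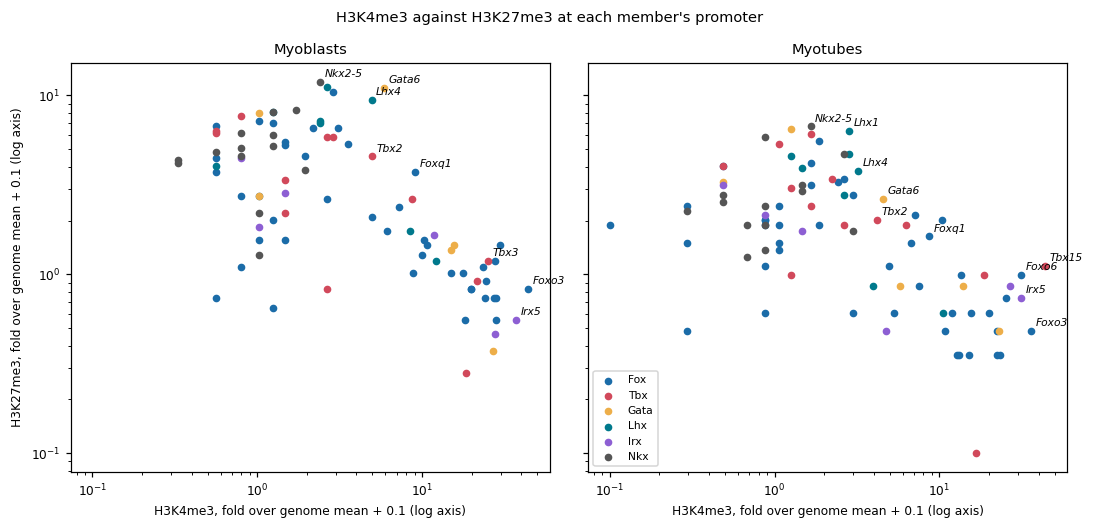
H3K27me3 against H3K4me3 at each of the 90 promoters in myoblasts (left) and myotubes (right), both as fold over the genome mean + 0.1 on log axes, coloured by family. The genes form an upper left cloud with H3K27me3 and a lower right cloud with H3K4me3, and Foxq1, Tbx2, Gata6 and Lhx4 lie between them in myoblasts.

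H3K27ac followed H3K4me3. It was called at 30 genes in myoblasts (46% of all genes) and at 28 in myotubes (42.6%). In myoblasts all 30 were among the 33 genes with H3K4me3 only, and the 3 left without it were Foxo4, Lhx6 and Lhx9. None of the 4 genes with both marks had it. In myotubes all 28 were among the 35 genes with H3K4me3, and 26 genes had H3K4me3 and H3K27ac in both cell types.

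H3K4me2 reached further. It was called at 51 genes in myoblasts (57.8% of all genes) and 47 in myotubes (54.6%). All 37 genes with H3K4me3 in myoblasts had it, and so did 13 of the 37 with H3K27me3 only, for instance Foxb2, Foxd1 and Nkx3-2. Nkx3-2 had 9.39-fold H3K4me2 in myoblasts beside 1.84-fold H3K4me3. Of the 16 genes with neither mark, Foxa1 alone had H3K4me2, at 4.02-fold. H3K4me1 was called at 27 genes in myoblasts (34.7% of all genes) and 15 in myotubes (31.5%), with Foxs1 highest in myoblasts at 12.9-fold.

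H3K36me3 was nearly absent from these promoter windows. It was called at 0 genes in myoblasts (9.8% of all genes) and at 2 in myotubes (7.31%), which were Foxo3 at 4.30-fold and Tbx6 at 7.27-fold. The window of Tbx6 also holds part of the neighbouring gene Ypel3, and the signal cannot be told apart from that gene's. Over the whole list, 13 windows hold part of another protein-coding gene, and 7 hold the start site of one.

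H3K4me3 and H3K27me3 were called together at 4 genes in myoblasts (4.44%, against 1.08% of all genes). In myotubes they were together at 0 genes, against 0.407% of all genes. Gata6, a factor of heart and endoderm, had 5.76-fold H3K4me3 and 10.9-fold H3K27me3 in myoblasts, and 4.46-fold and 2.55-fold in myotubes. Foxq1 had 8.99-fold and 3.65-fold in myoblasts and 8.53-fold and 1.53-fold in myotubes. Tbx2 had 4.84-fold and 4.47-fold, then 4.07-fold and 1.91-fold. These 3 were left with H3K4me3 only. Lhx4, the last of the 4, had 4.84-fold H3K4me3 and 9.39-fold H3K27me3 in myoblasts and kept the H3K27me3 call in myotubes at 3.70-fold, while its H3K4me3 was 3.10-fold and no longer called. The window of Foxq1 also holds the start site of A530084C06Rik. The count depends on the threshold: it is 17 in myoblasts and 13 in myotubes with the lower bound set at 1-fold, and 0 in myoblasts at 4-fold.

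A further 12 genes were called for none of the 6 marks in any library, a count that was not made over all genes. They included Foxp3, Foxr1, Tbx22, Irx1 and Nkx6-3. Foxp3, the factor of regulatory T cells, had 1.38-fold H3K4me3 and 1.46-fold H3K27me3 in myoblasts, and 0.776-fold and 1.91-fold in myotubes. These calls cover the 4 kb windows alone. Over the gene body beyond the window, H3K27me3 in myoblasts was 3.13-fold (2.11 to 4.47) at Irx1 and 3.20-fold (2.30 to 4.34) at Irx6. The others of the 12 with at least 2 kb of body had lower bounds under 2-fold there.

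Genes nearest to the threshold show how sharp the calls were. For H3K4me3 in myoblasts Tbx2 was just inside (4.84-fold, lower bound 3.00) and Foxa2 just outside (3.46-fold, lower bound 1.94). For H3K27me3 Tbx19 was just inside in myoblasts (3.28-fold, lower bound 2.30) and Irx6 just outside (2.73-fold, lower bound 1.84). In myotubes Gata1 (3.19-fold, lower bound 2.06) and Nkx1-2 (3.06-fold, lower bound 1.96) stood on opposite sides with levels that differed by less than their intervals.

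**Figure D3:**
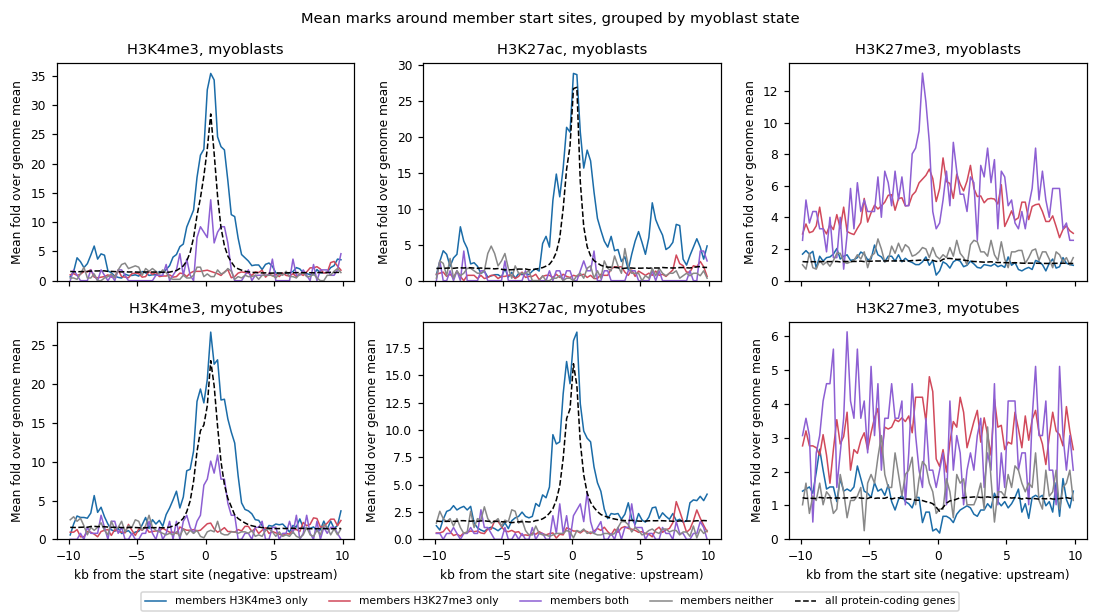
Mean fold over the genome mean of H3K4me3, H3K27ac and H3K27me3 in 250 bp bins within 10 kb of the start sites, in myoblasts (top) and myotubes (bottom), for the 90 genes split by myoblast state and for all protein-coding genes (dashed). H3K4me3 and H3K27ac are narrow peaks at the start site, whereas H3K27me3 extends across the whole plotted range; the line for both marks rests on 4 genes.

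H3K27me3 domains were measured as runs of 1 kb bins at 3-fold or more around the start site, with gaps of 1 bin allowed. In myoblasts the median width was 16 kb over the 41 marked genes and 8 kb over the 2219 other genes marked with H3K27me3, and 30 of the 41 (73.2%) against 43.9% of the others reached 10 kb. The widest was at Foxf1a, a factor of visceral mesoderm, with 123 kb, followed by Foxd1 with 86 kb and Lhx2 with 60 kb. In myotubes the medians were 16 kb over 19 genes and 11 kb over the others, and the shares that reached 10 kb were close, at 63.2% and 59.8%. H3K4me3 domains had a median of 3 kb in myoblasts, as among other marked genes. The widest H3K4me3 domain in myoblasts was at Foxs1 with 10 kb, and in myotubes Foxo6 had 19 kb, Irx5 18 kb and Foxo3 12 kb.

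Some neighbouring genes had opposite marks. Of the 90 genes, 17 lay within 250 kb of another, in 8 runs, and 5 of these runs held genes of different state in myoblasts. In 3 of the 5, a gene with H3K4me3 only lay beside one with H3K27me3 only. The same counts were not made for neighbours among all genes, so whether these are frequent is not known. Tbx3 and Tbx5 lie 164 kb apart on chromosome 5, at start sites 120121027 and 120284672. Tbx3 had 25.1-fold H3K4me3 and 1.09-fold H3K27me3, whereas Tbx5 had 0.692-fold and 7.56-fold. Foxf1a and Foxc2 lie 31.8 kb apart on chromosome 8, and the first had 6.47-fold H3K27me3 and the second 28.1-fold H3K4me3. Part of the gene Gm20388 lies in the windows of both. Foxd2 and Foxe3 are 17.2 kb apart, with 8.76-fold H3K4me3 at Foxd2 and 6.47-fold H3K27me3 at Foxe3. Tbx2 and Tbx4, 64.2 kb apart, had both marks and H3K27me3 only, respectively. In the run of Foxq1, Foxf2 and Foxc1, H3K27me3 was called at Foxq1 alone. The runs of Nkx2-1 with Nkx2-9 and of Nkx2-4 with Nkx2-2 had H3K27me3 at every gene in myoblasts.

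**Figure D4:**
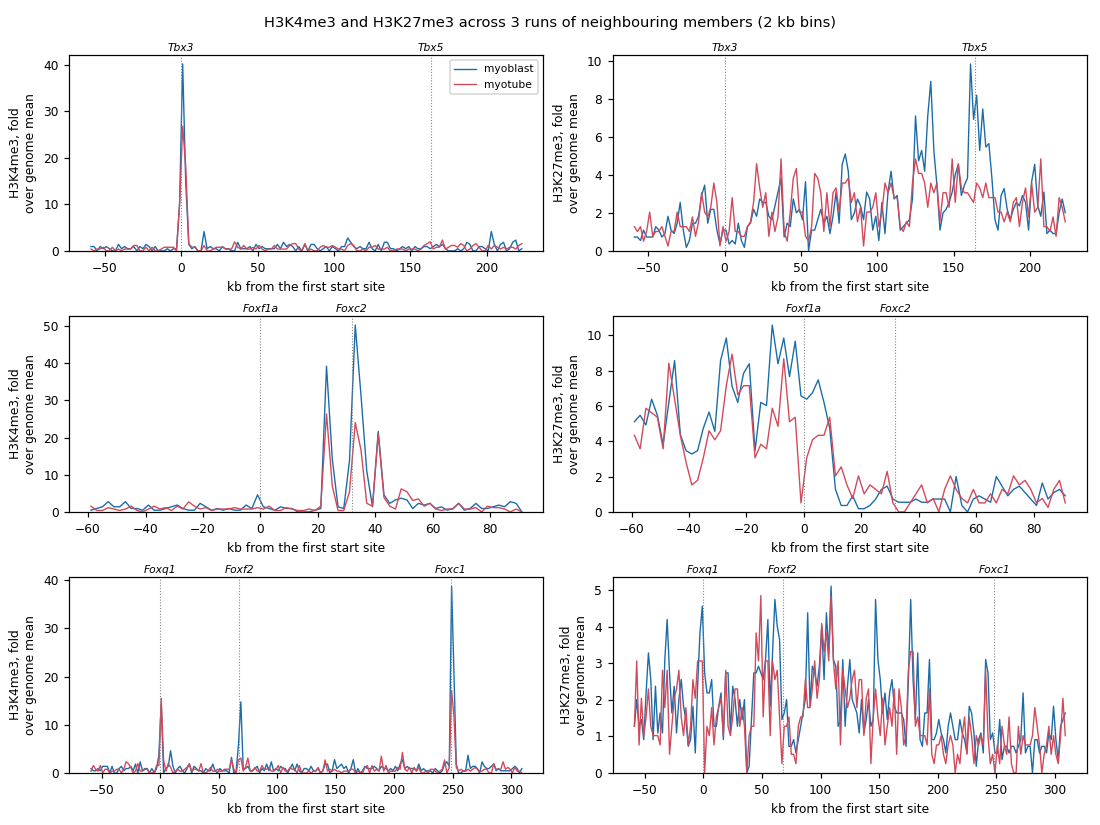
H3K4me3 (left) and H3K27me3 (right) as fold over the genome mean in 2 kb bins across 3 runs of neighbouring genes, plotted by kb from the first start site, in myoblasts (blue) and myotubes (red), with dotted lines at the start sites. H3K4me3 peaks at Tbx3, Foxc2 and Foxc1 have no counterpart at Tbx5 and Foxf1a, where H3K27me3 is raised. The peaks beside Foxc2 off the dotted lines lie at no start site used here.

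Of the 90 genes, 16 had start sites over 4 kb apart. In myoblasts H3K4me3 was called at 1 site of 8 of these genes and at no site of the other 8. At Gata2 the start site with H3K4me3 had 15.0-fold in myoblasts, and the annotated site 4.77 kb upstream had 0.692-fold. At Foxk2 the values were 28.1-fold and, 4.50 kb upstream, 1.15-fold. Gata3 had 27-fold and, 11.4 kb upstream, 2.08-fold, and Foxp1, a factor of lung and lymphocytes with 4 separate start sites, had 27.2-fold at the most downstream one and 0.231-fold to 0.692-fold at the rest. H3K27me3 was called at both sites of Lhx2, with 7.11-fold and 6.65-fold at sites 12 kb apart, and of Tbx4, with 6.11-fold and 3.74-fold. H3K4me1 was called at all 3 sites of Gata4, at 4.15-fold to 9.08-fold. The start site used for each gene was the one with most H3K4me3, so the contrast for H3K4me3 is a matter of choice and is given without a test.

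The question between the cell types was which of these promoters differ after differentiation. The ratio of myotube to myoblast levels was taken after scaling by total reads, with an exact binomial 95% interval, and a gene was called higher at a ratio of 2 or more and lower at 0.5 or less, provided that both libraries together held 30 reads. Since total reads can be a poor scale, counts of calls that moved under another scaling are given beside the main ones. The median ratio of all genes was below 1 for each mark: 0.910 for H3K4me3, 0.640 for H3K4me2, 0.876 for H3K4me1, 0.608 for H3K27ac, 0.831 for H3K27me3 and 0.866 for H3K36me3. Scaling on 10 kb windows without peaks shifts these log2 medians by -0.64 for H3K4me2, -0.31 for H3K4me1 and 0.16 for H3K36me3, and by less than 0.1 for the rest. No call named below changed direction under either scaling.

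**Figure D5:**
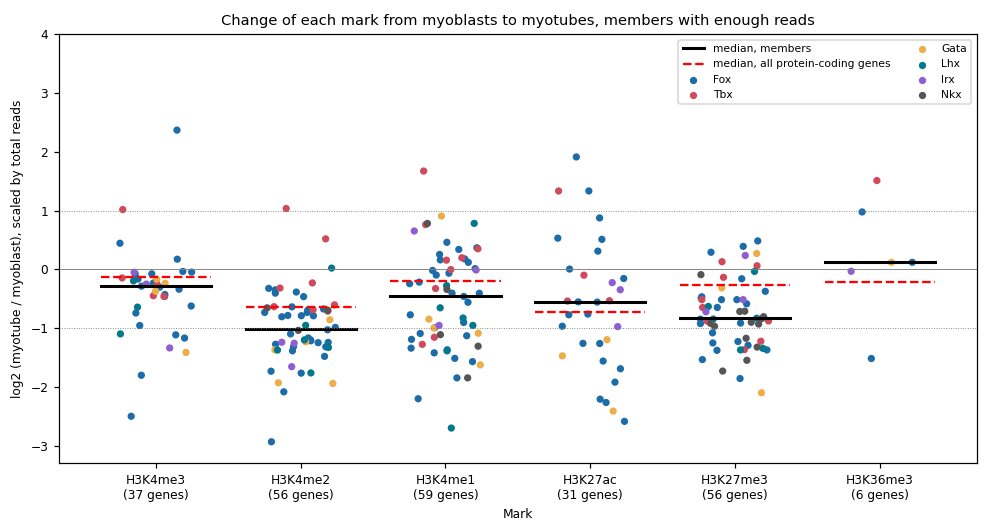
log2 ratio of the myotube to the myoblast level for each gene of the list whose paired libraries held 30 reads or more in sum, by mark, scaled by total reads and coloured by family. Black bars are medians of the list, red dashed bars medians of all protein-coding genes, and dotted lines the 2-fold limits; the H3K27me3 median of the list (ratio 0.561) lies below that of all genes (0.831).

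H3K27me3 was called lower in myotubes at 17 of the 56 genes with enough reads and higher at 0, against 12.3% and 1.51% of all genes. With the median of genes marked in both cell types set to 1, 12 were called lower. The ratio lay below 1 at 49 of the 56, and at 3259 of 4770 over all genes. The median ratio was 0.561 against 0.831 for all genes, and 19 intervals lay wholly below the median of genes marked in both cell types (9.41% of all genes) and 0 above it (5.89%). The lowest ratio was that of Gata6, 0.233 (0.138 to 0.376), from 120 reads to 20. Foxf1a followed at 0.276 (0.144 to 0.494) and Nkx2-3 at 0.301 (0.156 to 0.543). The highest ratios, 1.40 at Foxo4, 1.31 at Foxp3 and 1.22 at Foxi1, were not called and belong to genes without an H3K27me3 call. All 41 genes marked in myoblasts but 1 had a ratio under 1, with a median of 0.529, whereas 87.0% of the 2219 other genes marked in myoblasts did, with a median of 0.709. Since both sets were picked by their myoblast level, part of each is fixed by that choice. Among genes between 4-fold and 12-fold in myoblasts the medians were 0.532 for 36 of the list and 0.650 for 1348 others. That range is again set by the myoblast level. Within it the list stood higher, with a median of 6.15-fold in myoblasts against 5.19-fold, so these ratios do not compare genes of equal level. The low ratios were not particular to the list. Of the Hox genes with enough reads 10 of 20 were called lower, with a median of 0.518. Of the Wnt, Fgf and Bmp ligands 9 of 34 were, with a median of 0.612.

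At 26 of the 90 genes the state called in myotubes was another than in myoblasts. How many of all genes changed state was not counted. H3K27me3 only was called at 2019 of all genes in myoblasts and 1317 in myotubes, against 37 and 19 of the list. In the list, the call of H3K27me3 was lost at 20 genes with H3K27me3 only, which then had neither mark. Of these 20, 13 were also called lower by ratio. The other 7, Tbx19, Irx4, Nkx1-2, Nkx2-1, Nkx2-4, Nkx2-9 and Nkx6-1, had ratios of up to 0.70 and passed under the threshold without a call. The myotube H3K27me3 library held fewer reads than the myoblast one (5010146 against 7011383). With all libraries thinned to 1857191 reads, genes with an H3K27me3 call, alone or with H3K4me3, went from 41 to 36 in myoblasts. In myotubes they went from 19 to 15. The 17 genes that kept H3K27me3 had ratios of 0.528 to 1.04. At 0 genes did H3K27me3 give way to H3K4me3 or the reverse. The H3K4me3 call was lost at Foxf2. At Gata1 the H3K27me3 call appeared in myotubes alone. At the start site used, its level did not differ beyond counting error. The reads there were 29 and 25, a ratio of 1.21 (0.678 to 2.13). At its other annotated start site, 13.9 kb upstream, the reads were 10 and 23, a ratio of 3.22 (1.47 to 7.58).

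H3K4me3 was called different at a minority of genes. Of 37 with enough reads, 2 were called higher (5.41%, against 4.09% of all genes) and 7 lower (18.9%, against 6.66%). The ratio lay below 1 at 33 of the 37, and at 7022 of 11367 over all genes. The median was 0.820 against 0.910. With the median of marked genes set to 1, 5 were lower, without Foxc2 and Lhx6. Foxo6, a FoxO factor best known from brain, had the highest ratio, from 6.00-fold in myoblasts to 31.0-fold in myotubes, a ratio of 5.18 (3.41 to 8.17), and its H3K27ac went from 4.13-fold to 15.6-fold, a ratio of 3.77 (2.08 to 7.51). Tbx15 had 21.4-fold and 43.4-fold, a ratio of 2.03 (1.58 to 2.61). The lowest ratio was at Foxs1, a forkhead factor of pericytes and sympathetic neurons, with 27.4-fold in myoblasts and 4.85-fold in myotubes, a ratio of 0.177 (0.110 to 0.274). Foxf2, from 10.1-fold to 2.91-fold, and Gata2, from 15.0-fold to 5.62-fold, followed at 0.287 and 0.375. Foxc1, Foxc2, Lhx6 and Irx2 were the others, at 0.396 to 0.467. Below Foxo6 and Tbx15, the next highest ratio, 1.36 at the ciliary factor Foxj1, was not called.

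The promoter of Foxs1, chosen for its H3K4me3 ratio, serves as a comparison. The stretch is the 150 bases upstream of the start site in mm9, at chr2:152758945-152759094 on the minus strand, with CpG in capitals.
Foxs1: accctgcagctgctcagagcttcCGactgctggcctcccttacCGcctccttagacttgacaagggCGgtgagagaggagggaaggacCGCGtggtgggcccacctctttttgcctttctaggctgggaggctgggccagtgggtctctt
It holds 5 CpG, the same number as the stretch of Lhx4.

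H3K27ac differed more often, in the list as in the genome. Of 31 genes, 3 were called higher and 11 lower, against 6.47% and 37.3% of all genes, and the median was 0.680 against 0.608. With the median of genes marked in both cell types set to 1, 7 were higher and 6 lower, so the split depends on the scale. Foxo1 was higher at 2.52 (1.63 to 4.06), from 8.26-fold to 20.8-fold, as were Tbx15 at 2.52 (1.70 to 3.87) and Foxo6. Foxf2 was lowest at 0.166 (0.0742 to 0.349), then Gata2 at 0.188 (0.106 to 0.323) and Foxc2 at 0.208 (0.136 to 0.314). Foxm1, a factor of the cell cycle, was at 0.264 (0.175 to 0.395), and its window also holds the start site of 5930416I19Rik. Gata3 and Gata4 were lower too, at 0.436 and 0.361.

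H3K4me2 had 1 higher and 28 lower of 56 genes, against 2.66% and 31.4% of all genes, with a median of 0.497 against 0.640. The split was 2 and 8 with the median of marked genes set to 1, and 0 and 49 when scaled by windows without peaks. Foxs1 had the lowest ratio, 0.131 (0.0952 to 0.176), from 51.4-fold to 6.72-fold, before Foxb2 at 0.236 (0.158 to 0.344) and Gata2 at 0.260 (0.205 to 0.328). Tbx19, the pituitary factor, was the gene called higher at 2.05, but its interval of 0.974 to 4.62 included 1. Tbx6 and Lhx1 came next at 1.43 and 1.02, without a call. H3K4me1 had 1 higher and 19 lower of 59 genes, against 7.56% and 16.3%. Lhx6 was lowest at 0.154 (0.0587 to 0.342), followed by Foxd2 at 0.217, and Tbx19 was highest at 3.19 (1.58 to 6.98), before Gata5 at 1.88 and Nkx2-5 at 1.72, which were not called. The split for H3K4me1 was 2 and 13 with the median of marked genes set to 1, Gata5 being the added gene, and 1 and 27 when scaled by windows without peaks. H3K36me3 could be compared at 6 promoters, of which Tbx6 was higher at 2.85 (1.76 to 4.72) and Foxk2 lower at 0.349 (0.118 to 0.860), against 5.58% and 15.7% of all genes. Scaled by windows without peaks the split was 2 and 1, the added gene being Foxo3, which stood at 1.97, with Foxk1 and Gata3 both at 1.09 and Irx5 at 0.978.

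H3K36me3 over gene bodies, a readout that the promoter states did not use, had its highest median at the genes with H3K4me3 only. Of the list, 62 genes had at least 2 kb of body beyond the promoter window. In myoblasts the median level was 3.05-fold over 26 genes with H3K4me3 only, with 16 above 2-fold by the lower bound. The other 10 were not, for instance Foxa3 at 0.573-fold, Foxj1 at 1.08-fold and Lhx9 at 1.24-fold. The median was 0.713-fold over 3 genes with both marks, of which 0 were above 2-fold. It was 0.539-fold over 21 genes with H3K27me3 only, of which 0 were above 2-fold, and 0.315-fold over 12 with neither, of which 2 were (Foxp3 and Tbx6). Over all genes the median was 1.96-fold, and 46.7% were above. Foxm1 was highest, at 12.4-fold in myoblasts and 3.85-fold in myotubes, a ratio of 0.310 (0.237 to 0.400). Foxo6 went the other way, with 2.45-fold and 7.66-fold, a ratio of 3.13 (2.51 to 3.92), and Tbx15 had 2.60-fold and 4.63-fold, a ratio of 1.78 (1.61 to 1.98). The body of Foxp3 was at 3.83-fold and 4.50-fold although its promoter had no mark, and its window holds part of the gene Ppp1r3f.

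Most of these promoters were rich in CpG. In the 1000 bases centred on the start site, 63 of 90 (70%) had at least 50% GC and a CpG ratio, observed over expected, of 0.6 or more, against 45.4% of all genes. The median number of CpG was 65.5 against 42. All 4 genes with both marks were CpG-rich, against 74.7% of all genes in that state. So were 28 of the 33 with H3K4me3 only, whose 84.8% was close to the 78.1% of all such genes. Of the 37 with H3K27me3 only 24 were (64.9%, against 36.8%), and of the 16 with neither 7 were (43.8%, against 8.17%). Among CpG-rich promoters without H3K4me3 in myoblasts, 24 of 31 in the list had H3K27me3 (77.4%) against 743 of 1499 among all genes (49.6%). The letters GCTCG, the motif bound by ZBED6, were found on either strand in 76 of the 90 (84.4%) and in 63.6% of all promoters of the same length. The motif holds a CpG, so its share moves with CpG content, and a match is no evidence of binding.

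The known partners of these factors were read out in the same way. They are the Gata cofactors Zfpm1 and Zfpm2, the LIM-binding Ldb and LIM-only Lmo proteins, and the Groucho-related Tle corepressors, 13 genes in all. Of these, 9 had H3K4me3 in both cell types (69.2%, against 49.5% of all genes in myoblasts and 49.7% in myotubes). Tle1 had 42.0-fold in myoblasts and 34.5-fold in myotubes, and Tle3 29.5-fold and 21.3-fold. Lmo2, a partner of Gata1 in blood, was the one with H3K4me3 and H3K27me3 together in both cell types, with 3.69-fold and 6.74-fold in myoblasts and 5.24-fold and 3.70-fold in myotubes. Ldb2 had H3K27me3 only, at 3.46-fold, in myoblasts.

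Other developmental gene sets were read out beside them. Of 40 Hox genes as annotated (Hoxa3 is entered as a pair of genes), 15 had H3K4me3 only in myoblasts, 19 H3K27me3 only, 6 neither and 0 both. The shares of H3K4me3 only and H3K27me3 only were 37.5% and 47.5%, against 36.7% and 41.1% of the 90 genes and 48.5% and 9.04% of all genes. Of 51 Wnt, Fgf and Bmp ligands the counts were 10, 22, 17 and 2, with fewer genes under H3K4me3 only (19.6%) and more under neither (33.3%) than in the list. In myotubes 13 Hox genes and 10 ligands had H3K27me3 only. These sets are given side by side without a test.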

How the data were processed

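The 12 ChIP-seq libraries were used as deposited. Per the study's methods, the authors aligned the reads to mm9 with Mosaik, kept unique alignments and called peaks with MACS. The deposited read files hold 1 aligned read per line, a count of 1, not normalized, and the deposited peak lists hold a score per peak. The aligner settings bear on repeats, and no input library was used here.

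Reads were extended to 150 bp and counted by their midpoints within 2 kb either side of the start site of each protein-coding gene of GENCODE M1 (22342 genes on chromosomes 1 to 19 and X). The start site with most H3K4me3 reads was used for a gene with several, and Foxl1, annotated there as a pseudogene, was not included. A few items are counted in the totals but not reported here. Depth was 1857191 to 7026942 reads per library, and 3 reads in a window correspond to 0.273-fold to 1.03-fold. Fold levels have exact Poisson intervals and ratios have Clopper-Pearson intervals, both at 95% and covering counting error only. With 1 library per group, no test was made. CpG and motifs were counted in the mm9 reference genome.

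The genes named were the highest of each family, the 3 largest differences per mark in each direction, the genes that differed in state (5 of them with values), a list of muscle and mesenchyme factors, neighbours within 250 kb and up to 5 cofactors; single genes behind counts of 5 or fewer were added. The genes and lists were chosen with earlier results of these data known. The grouping of genes by H3K27me3 level, the values at separate start sites and the check of gene bodies in the windows were added after the data were seen. The alternatives were a window of 1 kb, the most 5' start site, 1 read per position, reads not extended, other thresholds, thinned libraries, the deposited peaks and other scalings. Intervals and calls were tested on counts simulated under the Poisson model that the intervals assume, and the counting of reads was not part of that test. Counting and intervals ran in Python 3.11.15 with scipy 1.17.1, numpy 2.4.6 and pandas 2.3.3, and plots in matplotlib 3.10.9.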

Additional observations from a re-analysis of the deposited data

How the results depend on the processing

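No paired analysis was possible because each mark has 1 library per cell type and no replicate numbers; for the same reason no library could be left out. Depth was lowest for H3K27ac in myoblasts, and what a missing call means there is that the mark was not detectable. With all libraries thinned to that depth, calls fell most for H3K4me1, from 27 to 17 in myoblasts and from 15 to 6 in myotubes. Of the counts recomputed under the alternatives, 159 stayed within 1.5 times the value reported and 51 did not. The causes were not tested, other than fewer reads or a changed limit by construction.

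With 1 kb windows, H3K27me3 in myotubes was called at 12 genes, H3K36me3 in myotubes at 1 and both H3K4me3 and H3K27me3 in myotubes at 1; 1 gene was higher for H3K4me3 and 0 for H3K4me2, 12 were lower for H3K4me1 and 0 for H3K36me3. With the most 5' start site, H3K36me3 was called at 2 genes in myoblasts and 4 in myotubes. By ratio, 7 genes were lower for H3K27ac, 1 (Gata1) was higher for H3K27me3 and 0 were lower for H3K36me3. There the ratios of Foxk2 for H3K27ac (1.18) and H3K36me3 (1.52) and of Gata2 for H3K27ac (1.57) turned above 1; that start site has few reads at both genes. With reads not extended, 2 genes were higher for H3K36me3.

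With the lower bound at 1-fold, H3K4me1 was called at 53 genes in myoblasts and 43 in myotubes, H3K27me3 in myotubes at 40, H3K36me3 at 7 and 5, and both H3K4me3 and H3K27me3 at 17 and 13. At 4-fold, H3K4me1 was called at 10 and 2 genes, H3K27me3 at 25 and 5, H3K36me3 in myotubes at 1 and both marks in myoblasts at 0. With libraries thinned to the smallest, H3K4me1 was called at 17 and 6 genes. By deposited peaks, with the myoblast H3K27 lists as deposited or exchanged, H3K4me1 was called at 3 genes in myotubes, H3K27me3 in myotubes at 10 and H3K36me3 at 2 and 5; both H3K4me3 and H3K27me3 were called in myoblasts at 26 genes with the lists as deposited and at 2 with them exchanged.

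With the median of marked genes set to 1, 2 genes were higher and 8 lower for H3K4me2, 2 higher for H3K4me1, and 7 higher and 6 lower for H3K27ac. Scaled by windows without peaks, 0 were higher and 49 lower for H3K4me2 and 2 higher for H3K36me3. With 15 reads as the minimum, 4 were higher and 11 lower for H3K4me3, 2 higher for H3K4me2, and 3 higher and 5 lower for H3K36me3.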
